A study of Mus musculus with 8 samples.

Results

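The genes described here make, sense, move and export cholesterol. They were taken from a list of 29 genes: 18 of synthesis, 4 of sterol sensing, 4 of intracellular trafficking and esterification, and 3 of efflux. A gene was kept when the platform annotation gave it a probe set with that symbol alone, and of several such probe sets the one with the highest mean over the 8 arrays was used. This left 26 genes of 22180 in the whole series, 16 of them in synthesis. Idi1, Acat2 and Soat1 had no such probe set and were not analysed here. The list holds no lipoprotein receptor, so receptor-mediated uptake is covered only by further pathway genes described after the members.

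The study measured total RNA of the left epididymal fat pad, a white adipose depot, of 8 male C57BL/6 mice on Affymetrix Mouse Gene 2.0 ST arrays. The GC+ group was 4 mice given prednisolone, a synthetic glucocorticoid, every day for 4 weeks from 6 weeks of age in a sweet potato puree, at a labelled dose of 40 mg per kg per square metre. The GC- group was 4 mice given the puree without the drug. Both groups ate the diet labelled HFn-6, in which fat gave 45% of the kcal and was of an n-6 rich kind, beginning when they were weaned (age 3 weeks), and were killed at 10 weeks of age. No mice on another diet are in the series, so every comparison holds under high-fat feeding. Each array is 1 mouse, described in the labels as a biological replicate and numbered 1 to 4 within its group. Values are log2 expression values, and differences are the GC+ mean minus the GC- mean with the standard error of limma, a linear model fitted across all genes (n = 4 per group).

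Cells build cholesterol from acetyl-CoA through mevalonate, squalene and lanosterol. When membranes of the endoplasmic reticulum run low in sterol, SCAP carries the transcription factor SREBP2 to the Golgi, where proteases release its active part, which raises the genes of the pathway; INSIG proteins hold SCAP back when sterol is plentiful. Excess cholesterol is sensed as oxysterols by the liver X receptors (LXR), which raise the ABC transporters that pass cholesterol to lipoproteins. White fat is a large store of free cholesterol, held mostly in and around the lipid droplet, and adipocytes are known to take up more cholesterol than they make.

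Promoters of the members share sequence features that the choice of genes did not use. They are shown for 3 synthesis genes, as examples of the motif most common among the members, and for Abca1, an efflux gene whose window lacks it and holds another motif. Each line gives the 250 bases before the annotated start, written 5′ to 3′ on the strand of the gene, from RefSeq on build GRCm38.p6. Capitals mark the letters CCAAT on either strand (ATTGG on the strand shown), the core bound by the factor NF-Y, which cooperates with SREBP. In Hmgcs1 they also mark TCACNCCAC, a form of the sterol regulatory element. In Abca1 they mark a direct repeat of nuclear receptor half-sites with a 4-base spacer, of the kind bound by LXR, searched on both strands and found here on the opposite one. That motif was written down with the Abca1 sequence in view.
Hmgcs1, chr13:119690101-119690350, plus strand: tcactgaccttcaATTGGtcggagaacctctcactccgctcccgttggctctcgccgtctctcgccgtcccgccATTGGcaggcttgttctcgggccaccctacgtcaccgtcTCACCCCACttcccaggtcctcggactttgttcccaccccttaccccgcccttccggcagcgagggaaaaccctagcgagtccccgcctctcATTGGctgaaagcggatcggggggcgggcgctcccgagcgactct
Nsdhl, chrX:72918271-72918520, plus strand: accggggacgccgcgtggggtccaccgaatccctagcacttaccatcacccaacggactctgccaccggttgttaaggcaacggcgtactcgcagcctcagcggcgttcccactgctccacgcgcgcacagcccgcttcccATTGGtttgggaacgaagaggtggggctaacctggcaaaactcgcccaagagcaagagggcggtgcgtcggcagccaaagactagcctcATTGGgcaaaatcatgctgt
Hsd17b7, chr1:169969206-169969455, minus strand: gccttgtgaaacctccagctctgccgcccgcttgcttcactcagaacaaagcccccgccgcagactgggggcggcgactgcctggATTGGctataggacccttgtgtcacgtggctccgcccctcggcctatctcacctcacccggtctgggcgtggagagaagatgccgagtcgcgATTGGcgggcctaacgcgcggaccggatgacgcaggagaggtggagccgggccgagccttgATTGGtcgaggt
Abca1, chr4:53159896-53160145, minus strand: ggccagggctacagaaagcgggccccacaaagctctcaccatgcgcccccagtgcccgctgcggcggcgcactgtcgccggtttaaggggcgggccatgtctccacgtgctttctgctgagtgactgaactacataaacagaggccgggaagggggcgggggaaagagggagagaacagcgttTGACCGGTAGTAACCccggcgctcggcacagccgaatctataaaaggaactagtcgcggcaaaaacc

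RefSeq promoter windows were found for 23 of the 29 listed genes. Of the 15 synthesis genes among them, 14 held CCAAT in at least 1 window, against 37.5% of the 27025 genes with a window. The synthesis gene without it was Acat2. Mvk held 5 matches, and Hmgcs1, Msmo1 and Hsd17b7 held 3 each. CCAAT was also found for 3 of the 4 sterol sensing genes, for Soat1 and Npc2, and for 0 of the 2 efflux genes with a window, Abca1 and Nr1h3. TCACNCCAC was found for 1 of the 23 genes, Hmgcs1, starting 137 bases before its start, against 1.22% of all genes. The direct repeat was found for Abca1 alone among the 23, 67 bases before its start, and for 0.189% of all genes. Since the motif was written down with the Abca1 sequence in view, its match there was fixed in advance. A match describes these letters and is no evidence of binding.

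Array medians lay between 6.09 and 6.13, and arrays correlated at 0.879 to 0.986 across the 14787 genes tested, those left after the dimmest 33.3% were dropped. All 26 members were bright enough to be tested. Adipocyte markers identified the tissue: the mean over 11 tested markers lay between 11.77 and 12.34 on every array. Transcripts of the adjacent epididymis set 3 arrays apart. A list score is the mean, over its tested genes, of each value minus that gene's mean over the 8 mice. The score of 14 epididymis genes was 4.00 in GC+ mouse 2, 2.85 in GC- mouse 1 and 1.30 in GC- mouse 4, and at most 0.41 in the other 5 mice. The score of 7 testis germ cell genes was 1.02 in GC+ mouse 3 and 1.11 in GC- mouse 1, and at most 0.35 elsewhere.

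The 16 synthesis genes did not separate prednisolone from vehicle mice. Of them 13 were higher and 3 lower on average in GC+ mice, with a median difference of 0.12, against 54.6% of all tested genes higher and a median of 0.02. None passed an adjusted p of 0.05 (adjusted p between 0.768 and 0.997), and over all genes 0 of 14787 passed (0%). At an unadjusted p under 0.05, 0 of the 16 were called, where 5.69% of all genes were called, 3.37% higher and 2.33% lower. The groups overlapped in every synthesis gene, where 1.81% of all genes had groups apart with GC+ higher and 1.39% with GC+ lower. The lead in the number of higher genes rested on single mice: without GC+ mouse 3 the count was 8 higher and 8 lower, as it was without GC- mouse 3, and without GC- mouse 1 it was 16 higher and 0 lower. Less RNA per cell and fewer cells of a type cannot be told apart in tissue RNA such as this.

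**Figure D1:**
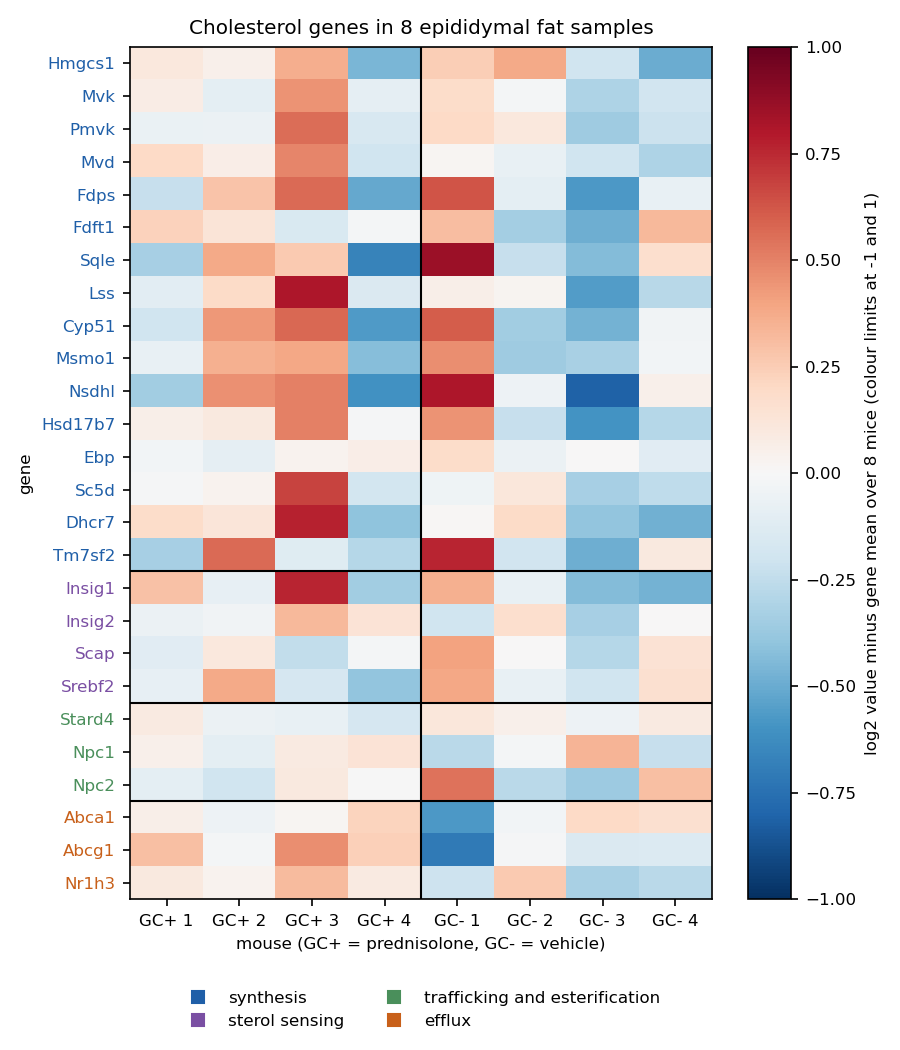
Heat map of the 26 cholesterol genes (rows, coloured by role) in the 8 mice (columns, GC+ left of GC-). Colour is the log2 value minus the gene's mean over the 8 mice. GC+ mouse 3 and GC- mouse 1 are red across most synthesis genes, and GC- mouse 3 and GC+ mouse 4 are blue.

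The enzymes of the mevalonate part of the pathway come first. Hmgcs1 condenses acetyl units to HMG-CoA, Mvk phosphorylates mevalonate, Pmvk adds a further phosphate, and Mvd decarboxylates the product. Mvd had the lowest p of the synthesis genes. It read 7.76, 7.63, 8.06 and 7.37 in GC+ mice 1 to 4, against 7.59, 7.49, 7.37 and 7.26 in GC- mice 1 to 4. GC+ mouse 4 lay at the level of GC- mouse 3 and the other 3 GC+ mice lay above every GC- mouse. The difference was 0.28 ± 0.15 with an unadjusted p of 0.097 and an adjusted p of 0.768. Mvk differed by 0.17 ± 0.15, Pmvk by 0.13 ± 0.19 and Hmgcs1 by 0.03 ± 0.23. Hmgcs1 ran between 10.64 and 11.47 in GC+ mice and between 10.61 and 11.48 in GC- mice, nearly the same span in both groups.

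The next enzymes lead to lanosterol. Fdps makes farnesyl diphosphate, Fdft1 joins its molecules to squalene, Sqle oxidises squalene and Lss closes the ring system. Lss had the largest difference of the synthesis genes, 0.38 ± 0.23, with means of 8.20 ± 0.44 in GC+ mice and 7.82 ± 0.29 in GC- mice (SD, n = 4 each). GC+ mouse 3, at 8.82, was the brightest. Without that mouse the Lss difference was 0.17, and that of Hsd17b7, at 0.22, was the largest of the synthesis genes. Sqle, a rate-controlling step, had the lowest difference, -0.18 ± 0.33, with means of 7.55 ± 0.49 in GC+ mice and 7.74 ± 0.57 in GC- mice. Fdps and Fdft1 differed by 0.06 ± 0.30 and 0.10 ± 0.20. In Sqle the spread inside each group was larger than the difference between the groups.

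The remaining enzymes turn lanosterol into cholesterol. Cyp51 and Msmo1 begin the removal of methyl groups, Nsdhl and Hsd17b7 complete it, and Ebp shifts a double bond. Sc5d and Dhcr7 set the final pattern of double bonds, and Tm7sf2 removes a double bond directly after the Cyp51 step. Nsdhl had the widest range of any synthesis gene, 1.62 between the lowest and the highest mouse. It read 10.05, 10.85, 10.89 and 9.79 in GC+ mice 1 to 4, against 11.20, 10.34, 9.58 and 10.44 in GC- mice 1 to 4. Both extremes were vehicle mice, and the difference of the means was 0.0051 ± 0.37. Hsd17b7 differed by 0.33 ± 0.22, Dhcr7 by 0.33 ± 0.25 and Sc5d by 0.26 ± 0.19. Cyp51 and Msmo1 differed by 0.12 ± 0.31 and 0.12 ± 0.24. Ebp was the steadiest, with a range of 0.30 and a difference of -0.01 ± 0.09, and Tm7sf2 differed by -0.09 ± 0.30.

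**Figure D2:**
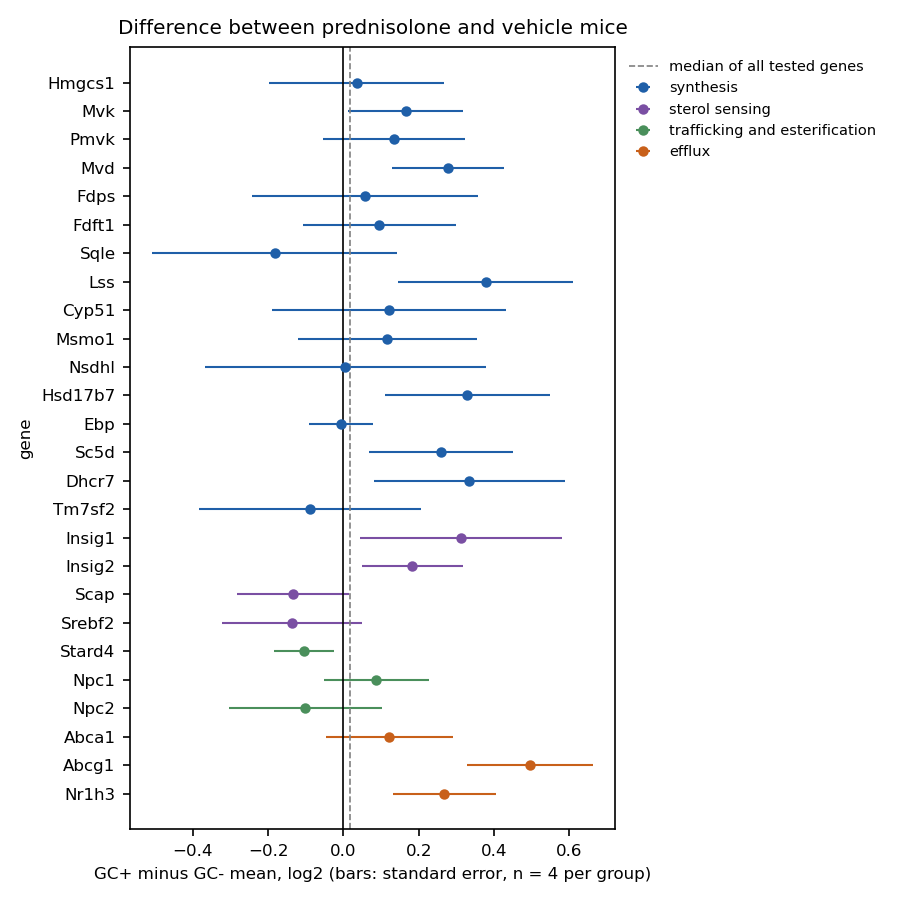
Difference between GC+ and GC- means of each of the 26 genes on the log2 scale, with bars of 1 standard error (n = 4 per group), coloured by role. The dashed line is the median of all tested genes, 0.02. Abcg1, at 0.50, lies farthest from 0, and the synthesis genes run between -0.18 and 0.38.

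Synthesis genes varied widely between mice. The median range of the synthesis genes over the 8 mice was 1.06, against 0.53 for all tested genes. GC+ mouse 3 was the brightest mouse for 7 of the 16 genes and GC- mouse 1 for another 7. GC- mouse 3 was the dimmest for 9, GC- mouse 4 for 4 and GC+ mouse 4 for 3. The synthesis score was -0.05, 0.18, 0.42 and -0.29 in GC+ mice 1 to 4, against 0.36, -0.07, -0.41 and -0.13 in GC- mice 1 to 4. The highest and the lowest mice of the groups thus lay side by side. Mean scores were 0.06 ± 0.31 in GC+ mice and -0.06 ± 0.32 in GC- mice (SD, n = 4 each). Their difference, 0.13, was smaller than the SD of either group.

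GC+ mouse 3 and GC- mouse 1, the brightest for synthesis genes, were also the mice with the highest testis germ cell scores, 1.02 and 1.11; the part of such transcripts in the synthesis values was not tested. GC- mouse 4, with the next germ cell score of 0.35, had a synthesis score of -0.13. The mice high in epididymis transcripts had synthesis scores of 0.18 (GC+ mouse 2), 0.36 (GC- mouse 1) and -0.13 (GC- mouse 4). Members that were higher without overlap on those 3 arrays than on the other 5 numbered 3 of 26 (11.5%), Tm7sf2, Scap and Srebf2. That is near the share of all tested genes, 8.36%. Lower without overlap on the 3 arrays was 1 member, Npc1, as were 1356 of the 14787 tested genes. Tm7sf2 read 8.60 in GC+ mouse 2, 8.80 in GC- mouse 1 and 8.13 in GC- mouse 4, and at most 7.91 elsewhere. The part of epididymal RNA in these values was not tested. Without the 3 arrays, which leaves 3 GC+ and 2 GC- mice, 15 of the 16 synthesis genes were higher and 1, Hmgcs1, was lower in GC+ mice, with a median of 0.28. In that fit Hsd17b7 (0.60, unadjusted p = 0.024) and Fdft1 (0.43, unadjusted p = 0.023) were called at an unadjusted p under 0.05, where 2.04% of all genes were called higher, and the lowest adjusted p of the list was 0.957. Without the 2 mice of high germ cell score 15 were again higher, and Hsd17b7 was called (0.42, unadjusted p = 0.011), where 1.57% of all genes were called higher. Both sets leave out GC- mouse 1, and without that mouse alone the count was 16 higher and 0 lower.

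**Figure D3:**
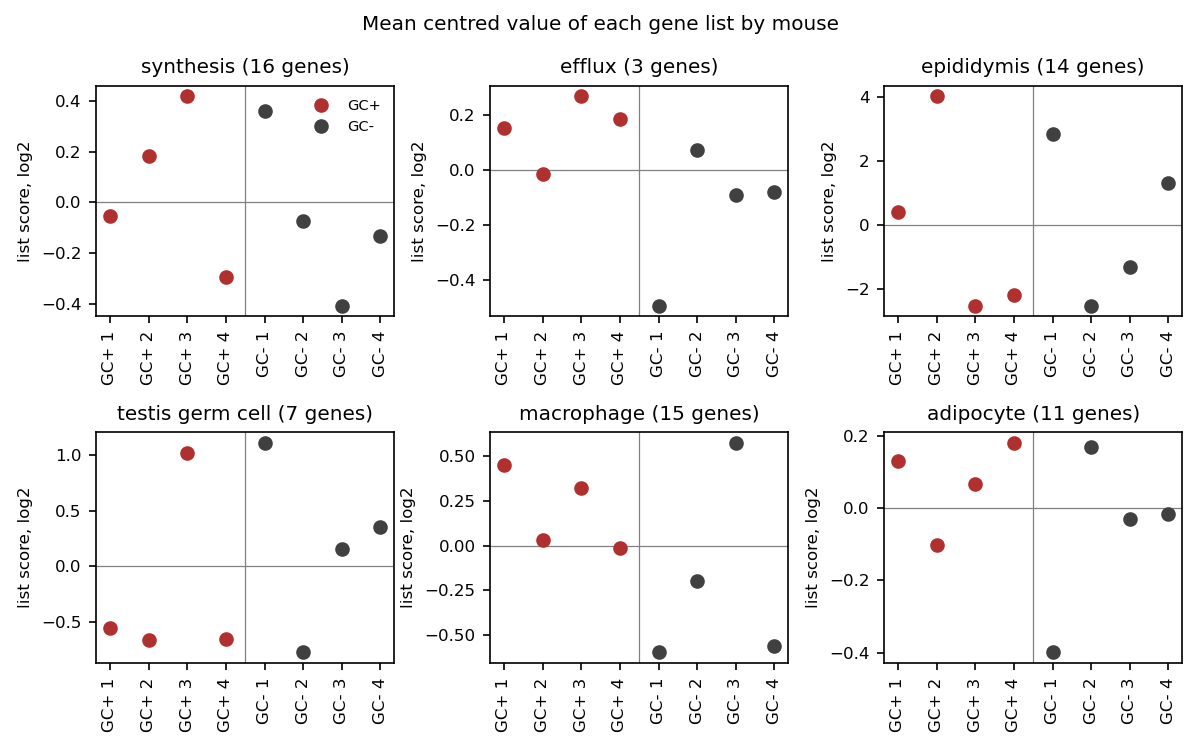
List scores (mean log2 value minus gene mean over the 8 mice) of 6 gene lists by mouse, 1 point per mouse, GC+ in red left of GC- in grey. Scales differ between panels. Synthesis peaks in GC+ mouse 3 (0.42) and GC- mouse 1 (0.36), and efflux is lowest in GC- mouse 1 (-0.49).

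The sterol sensing genes showed no common direction, with 2 of 4 higher and 2 lower in GC+ mice and a median of 0.03. None of the 4 was called at an adjusted p under 0.05 or at an unadjusted p under 0.05, where 5.69% of all genes were called. Insig1, an SREBP target whose product retains SCAP, read 11.81, 11.43, 12.27 and 11.17 in GC+ mice 1 to 4, against 11.86, 11.44, 11.08 and 11.04 in GC- mice 1 to 4. GC+ mouse 3 was the brightest and the groups overlapped widely (0.31 ± 0.27, adjusted p = 0.799). Without GC+ mouse 3 the difference was 0.11. Insig2, its relative that is under other control, read 8.73, 8.75, 9.11 and 8.92 in GC+ mice, against 8.59, 8.95, 8.45 and 8.79 in GC- mice. It had the lowest p of these genes (0.18 ± 0.13, unadjusted p = 0.205). Srebf2, the gene of SREBP2, and Scap differed by -0.14 ± 0.19 and -0.13 ± 0.15. Their highest values were in the 3 mice rich in epididymis transcripts, as were those of 8.36% of all tested genes. Srebf2 read 9.29 in GC+ mouse 2, 9.30 in GC- mouse 1 and 9.08 in GC- mouse 4, and at most 8.84 in the others. The dimmer of the 2 Scap probe sets had the opposite sign, 0.06.

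Genes of intracellular trafficking differed little. Stard4 carries cholesterol between membranes in the cytosol, and Npc2 and Npc1 pass lipoprotein-derived cholesterol out of the lysosome. Stard4 read 6.51, 6.36, 6.35 and 6.26 in GC+ mice 1 to 4, against 6.54, 6.48, 6.37 and 6.51 in GC- mice 1 to 4. Its whole range was 0.28 and the difference was -0.10 ± 0.08 (adjusted p = 0.782). Npc2 read 12.17, 12.07, 12.37 and 12.26 in GC+ mice, against 12.81, 11.99, 11.90 and 12.57 in GC- mice. Its GC- extremes enclosed all GC+ mice, with GC- mice 1 and 4, both rich in epididymis transcripts, at the top. GC+ mouse 2, also rich in them, was the lowest of its group, and the difference was -0.10 ± 0.20. Without the 3 epididymis-rich arrays it was 0.32 (unadjusted p = 0.027, adjusted p = 0.957). Npc1 differed by 0.09 ± 0.14, and its dimmer second probe set by 0.09.

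The 3 efflux genes were all higher on average in GC+ mice, with a median difference of 0.27, where 54.6% of all tested genes were higher. Of the 3, Abcg1 was called at an unadjusted p under 0.05, where 3.37% of all genes were called higher. Abcg1, a transporter that passes cholesterol to high-density lipoprotein, read 8.93, 8.60, 9.09 and 8.86 in GC+ mice 1 to 4, against 7.92, 8.61, 8.48 and 8.49 in GC- mice 1 to 4. GC+ mouse 2 stood level with GC- mouse 2, the other 3 GC+ mice lay above all vehicle mice, and GC- mouse 1 lay far below the rest. The difference was 0.50 ± 0.17, a 1.41-fold higher level, with an unadjusted p of 0.018 and an adjusted p of 0.768, so it did not pass over all genes. It was 0.41 ± 0.12 without the 3 epididymis-rich arrays. It was 0.34 without GC- mouse 1, and 0.27 (unadjusted p = 0.051) without GC+ mouse 3 and GC- mouse 1, the mice with germ cell scores over 1.

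Nr1h3 encodes LXR alpha, the oxysterol receptor that raises both transporters. It ran between 8.67 and 8.96 in GC+ mice and between 8.32 and 8.90 in GC- mice (0.27 ± 0.14, unadjusted p = 0.086, adjusted p = 0.768). All GC+ mice lay above 3 of the 4 GC- mice, and GC- mouse 2 lay among them. Abca1, which loads cholesterol onto lipid-poor apolipoprotein, ran between 10.64 and 10.91 in GC+ mice and between 10.12 and 10.89 in GC- mice (0.12 ± 0.17). GC- mouse 1 alone lay below the GC+ range, and without it the difference was -0.05.

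Markers of other cell types are given beside the efflux genes, and their part in the result was not tested. All 15 tested macrophage markers were higher on average in GC+ mice, where 54.6% of all tested genes were higher. Of them 3 were called at an unadjusted p under 0.05, where 3.37% of all genes were called higher, and none after adjustment. The macrophage score was 0.45, 0.03, 0.32 and -0.02 in GC+ mice 1 to 4, against -0.60, -0.20, 0.58 and -0.56 in GC- mice 1 to 4. The efflux score of the same mice was 0.15, -0.01, 0.27 and 0.18 in GC+ mice 1 to 4, against -0.49, 0.07, -0.09 and -0.08 in GC- mice 1 to 4. Of the 8 endothelial markers 7 were lower on average in GC+ mice, where 6712 of the 14787 tested genes were lower. Of the 11 tested adipocyte markers 9 were higher and 2 lower on average in GC+ mice, where 54.6% of all tested genes were higher. None of the 11 was called at an unadjusted p under 0.05, where 3.37% of all genes were called higher. The adipocyte score was 0.13, -0.10, 0.07 and 0.18 in GC+ mice 1 to 4, against -0.40, 0.17, -0.03 and -0.02 in GC- mice 1 to 4. GC- mouse 1 was the lowest mouse in the adipocyte, macrophage, endothelial and efflux scores, at -0.40, -0.60, -0.49 and -0.49.

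**Figure D4:**
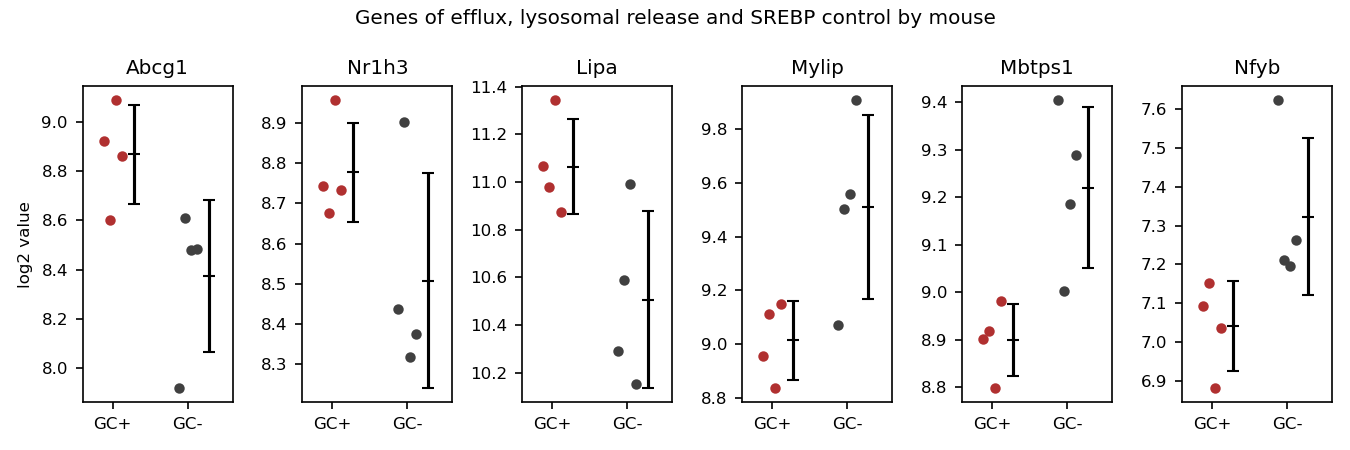
Log2 values by mouse of Abcg1, Nr1h3 and 4 further pathway genes, GC+ (red) left of GC- (grey), with the mean and SD beside each group (n = 4). The vertical scale differs between genes and does not start at 0. Groups are apart in Mbtps1 and Nfyb, and overlap in the others.

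Synthesis was then set against efflux by taking the efflux score from the synthesis score in each mouse. The result was -0.21, 0.20, 0.15 and -0.48 in GC+ mice 1 to 4, against 0.85, -0.15, -0.32 and -0.05 in GC- mice 1 to 4. GC- mouse 1, high in synthesis and low in efflux genes, stood at the top, and the other 3 vehicle mice lay inside the GC+ range. The means were -0.08 ± 0.32 in GC+ mice and 0.08 ± 0.52 in GC- mice (SD, n = 4 each), a difference of -0.17 that is smaller than the spread in either group. Its sign turned without GC- mouse 1, to 0.09, without the 3 epididymis-rich arrays, to 0.06, and without the 2 mice of high germ cell score, to 0.0092. No test was run on this score, since its members were chosen with earlier results known.

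Further genes of the pathway were read from the same fit: 31 were tested, 16 higher and 15 lower in GC+ mice, with a median of 0.0053. None passed the adjusted threshold (adjusted p of 0.768 or more in each). At an unadjusted p under 0.05, 1 was higher and 3 were lower, where 3.37% and 2.33% of all genes were called in those directions. Groups were apart in 2, both lower, against 1.39% of all genes. Lipa, the lysosomal lipase that frees cholesterol from its esters, read 11.07, 10.98, 11.34 and 10.87 in GC+ mice 1 to 4, against 10.29, 10.59, 10.99 and 10.15 in GC- mice 1 to 4. GC- mouse 3 was the only vehicle mouse inside the GC+ range, and the difference was 0.56 ± 0.19 (unadjusted p = 0.017). It was 0.30 (unadjusted p = 0.157) without the 3 epididymis-rich arrays and 0.39 (unadjusted p = 0.107) without the 2 mice of high germ cell score.

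Mylip, an LXR target whose product degrades lipoprotein receptors, read 8.95, 9.11, 8.84 and 9.15 in GC+ mice, against 9.07, 9.50, 9.56 and 9.91 in GC- mice. GC- mouse 1 was the only vehicle mouse inside the GC+ range. The difference was -0.50 ± 0.17 (unadjusted p = 0.018). It was -0.55 without the 3 epididymis-rich arrays and -0.58 without the mice of high germ cell score. Its direction was opposite to that of Abcg1 (0.50) and Abca1 (0.12), the transporters that LXR raises. Of the 9 further efflux and LXR genes tested, 6 were higher and 3 lower in GC+ mice, where 54.6% of all tested genes were higher.

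Mbtps1, the protease that makes the first cut in SREBP, read 8.90, 8.92, 8.80 and 8.98 in GC+ mice, against 9.40, 9.003, 9.19 and 9.29 in GC- mice. Every GC+ mouse lay below every GC- mouse (-0.32 ± 0.10, unadjusted p = 0.011). Nfyb, the B subunit of NF-Y, read 7.09, 7.15, 6.88 and 7.04 in GC+ mice, against 7.62, 7.21, 7.19 and 7.26 in GC- mice. The groups were again apart, with GC+ mouse 2 and GC- mouse 3 nearest to each other (-0.28 ± 0.11, unadjusted p = 0.039). Both lost their unadjusted call in smaller sets of mice. Without the 3 epididymis-rich arrays the difference was -0.20 for Mbtps1 (unadjusted p = 0.133) and -0.20 for Nfyb (unadjusted p = 0.119). Without the 2 mice of high germ cell score it was -0.23 for Mbtps1 (unadjusted p = 0.063) and -0.13 for Nfyb (unadjusted p = 0.150). Nfyb was -0.18 without GC- mouse 1 (unadjusted p = 0.073). Among further efflux and LXR genes the lowest p was that of Abca7, an ABC transporter related to Abca1, which differed by 0.35 ± 0.16 (unadjusted p = 0.056). The lipoprotein receptors are named because the member list holds none, a choice made after their values were seen: Vldlr differed by 0.33 ± 0.17, the scavenger receptor Scarb1 by -0.07 ± 0.09 and Lrp1 by 0.15 ± 0.21.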

How the data were processed

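The deposited values are log2 expression values made by the authors with RMA in Affymetrix Expression Console, per the labels' sample descriptions and the submitters' processing notes; Partek 6.6 is also named there without a role. RMA corrects background, equalises array distributions and summarises probes, so shifts common to a whole array are removed and low signals are compressed. The genome build of the annotation is not given in the sources used here. Of 41345 probe sets, 23521 had 1 gene symbol in GEO's platform annotation and gave 22180 genes; 23328 matched the RefSeq gene table by Entrez identifier, and 0 symbols changed. The dimmest 33.3% of genes by mean over 8 arrays (below 5.82) were left out.

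GC+ was compared with GC- in limma 3.58.1 (R 4.3.3; lmFit and eBayes, no covariate), with Benjamini-Hochberg adjustment over 14787 genes at 0.05; the fit was tested on simulated data. P-values measure the spread between 4 mice per group, and the number of arrays limits precision. Members and lists were chosen with earlier results of these data known. Every member may be named; values of every mouse are given for members and further pathway genes at an unadjusted p under 0.05 or with groups apart, and for the lowest p and the widest range in each member list; a further pathway list without such a gene has its lowest p named. Same-numbered mice did not deviate together (correlations of -0.58 to 0.13), so the numbers were not treated as pairs. Alternatives changed the filter, normalization, probe set choice, variance model, array weights, replicate block and epididymis covariate, and left out mice.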

Additional observations from a re-analysis of the deposited data

Results flagged for a closer look

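Among 70 groups of 4 mice examined for a single mouse far from its group, counting the named genes and list scores in each group, 2 stood out; chance gives about 1 in 20. Pmvk, the phosphomevalonate kinase, read 9.67 in GC+ mouse 3, against 8.96 to 9.06 in the other GC+ mice. Nfyb read 7.62 in GC- mouse 1, against 7.19 to 7.26 in the other GC- mice.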

How the results depend on the processing

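No member gained or lost an adjusted call in any of the settings tried, nor did Lipa, Mylip, Mbtps1 or Nfyb. Of the 26 members, 12 kept their direction in all of the settings. With the epididymis score as a covariate 1 of all genes passed, the imprinted gene Peg10, named after its value was seen (adjusted p = 0.0424). Genes at an unadjusted p under 0.05 numbered 1980 with array quality weights, 1444 with the epididymis covariate, 497 without the 3 epididymis-rich arrays, 452 without the 2 arrays of high germ cell score (a setting chosen after seeing the data) and 436 to 1590 with 1 mouse left out. With the replicate number as a block there were 504, and no call of a member changed; differences stayed as they were.

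The trafficking median was -0.0070 without the dimmest 50% of genes, which drops Stard4, -0.0020 without the germ cell-rich arrays and -0.14 to 0.013 with 1 mouse left out; the median of further pathway genes was then -0.015 to 0.066. Signs turned with array weights for Fdps (-0.051), Cyp51 (-0.016), Nsdhl (-0.17) and Ebp (0.037). Ebp turned also with a median shift (0.019) or repeated quantile normalization (0.0050). Without the epididymis-rich arrays they turned for Npc2 (0.32), Npc1 (-0.072), Scap (0.015), Tm7sf2 (0.095), Sqle (0.083), Hmgcs1 (-0.086) and Ebp (0.051). Without the germ cell-rich arrays they turned for Npc1 (-0.0020), Scap (0.037), Srebf2 (0.0028), Tm7sf2 (0.18), Abca1 (-0.034), Npc2 (0.012) and Ebp (0.039). With 1 mouse left out the differences ran from -0.048 to 0.21 for Abca1, -0.049 to 0.34 for Cyp51, -0.047 to 0.053 for Ebp, -0.052 to 0.22 for Fdft1, -0.13 to 0.28 for Fdps, -0.12 to 0.19 for Hmgcs1, -0.24 to 0.062 for Npc2, -0.26 to 0.27 for Nsdhl, -0.030 to 0.22 for Pmvk, -0.36 to 0.072 for Sqle and -0.29 to 0.15 for Tm7sf2. The cause of these changes was not tested.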
